A study of Mus musculus with 6 samples.

Results

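The V1R receptors of the mouse vomeronasal organ with known ligands examined here were Vmn1r49 (also V1rb2), Vmn1r85 (V1rj3) and Vmn1r89 (V1rj2). They were chosen for their ligands and make up 3 of the 317 V1R genes and of the 35450 genes with a value in the files. The 317 are all genes with a symbol starting with Vmn1r, of which 201 are annotated as protein-coding. The study sequenced poly(A) RNA from vomeronasal organs at postnatal day 60, from 3 wild-type (Cnpy1+/+) mice and 3 Cnpy1 knockout (Cnpy1-/-) littermates. Each genotype had 2 males and 1 female, and both organs of a mouse went into 1 library, so a library is 1 mouse. The labels describe no treatment, strain or design of the knockout allele beyond this. The comparison asked how loss of Cnpy1, which encodes a Canopy family protein of the endoplasmic reticulum, changes gene expression in the organ.

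V1R receptors are G protein-coupled receptors of the apical layer of vomeronasal neurons. Each of these neurons mostly expresses 1 receptor gene, signals through the G protein subunit encoded by Gnai2, phospholipase C and the channel Trpc2, and projects to the accessory olfactory bulb. Vmn1r49 is the receptor for 2-heptanone, a volatile ketone of mouse urine. Vmn1r85 and Vmn1r89 respond to sulfated steroids, which are excreted in urine. V2R receptors are the other large family and belong to the basal layer, whose neurons express Gnao1.

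Vmn1r49 (ENSMUSG00000095932.3) lies on chromosome 6 at 90071893 to 90078506, on the minus strand of GRCm38. Vmn1r85 (ENSMUSG00000070817.3) lies on chromosome 7 at 13083313 to 13095173 on the minus strand, and Vmn1r89 (ENSMUSG00000095629.2) at 13213020 to 13220657 on the plus strand of the same cluster, which also holds Vmn1r86, Vmn1r87 and Vmn1r88. The coding part of each receptor sits in 1 exon and spans 930, 924 and 948 bases without the stop codon. Over the aligned coding bases, Vmn1r85 and Vmn1r89 were 69.2% identical, and Vmn1r49 was 52.2% identical to Vmn1r85 and 50% to Vmn1r89. The median identity to the 200 other V1R genes with a coding sequence was 51.4% for Vmn1r49 and 52.1% for both others. Closer copies existed for Vmn1r89, which was 90.7% identical to Vmn1r86 and 87.3% to Vmn1r88. Vmn1r49 was 90.6% identical to Vmn1r44, 89.8% to Vmn1r53 and 89.0% to Vmn1r50, all of the V1rb clade.

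These copies matter because reads are assigned to a gene by its sequence. A 90-base coding window of Vmn1r89 (chr7:13219605-13219694, plus strand) is shown with the aligned windows of Vmn1r86 (chr7:13102592-13102681, minus strand) and Vmn1r85 (chr7:13084857-13084946, minus strand). It covers the longest run that Vmn1r85 and Vmn1r89 share, which is 21 bases. Each is GENCODE M21 transcript sequence on GRCm38, read 5′ to 3′ along the transcript, and capitals mark bases that differ from Vmn1r89.
Vmn1r89: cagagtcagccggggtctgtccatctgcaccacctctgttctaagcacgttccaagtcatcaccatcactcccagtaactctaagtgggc
Vmn1r86: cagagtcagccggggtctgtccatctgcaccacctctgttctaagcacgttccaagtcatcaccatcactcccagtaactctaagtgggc
Vmn1r85: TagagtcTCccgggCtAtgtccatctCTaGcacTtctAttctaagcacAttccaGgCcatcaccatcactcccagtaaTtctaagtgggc
Vmn1r86 had 0 differences from Vmn1r89 in this window and shared a run of 115 bases with it, whereas Vmn1r85 had 14 differences.

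The same comparison is shown for Vmn1r49 (chr6:90072601-90072690, minus strand) with Vmn1r44 (chr6:89893602-89893691, plus strand) and Vmn1r50 (chr6:90107603-90107692, plus strand). Capitals mark bases that differ from Vmn1r49.
Vmn1r49: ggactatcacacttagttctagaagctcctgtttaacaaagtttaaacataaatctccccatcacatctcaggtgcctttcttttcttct
Vmn1r44: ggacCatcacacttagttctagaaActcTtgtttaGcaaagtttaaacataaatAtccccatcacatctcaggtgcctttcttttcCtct
Vmn1r50: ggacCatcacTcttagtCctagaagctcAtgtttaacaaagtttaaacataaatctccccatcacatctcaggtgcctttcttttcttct
The window of Vmn1r44 had 6 differences and that of Vmn1r50 had 4, and the longest coding runs shared with Vmn1r49 were 62 bases for Vmn1r44, outside this window, and 61 bases for Vmn1r50. Of the 31-base stretches of all transcripts of a gene, 94.7% occurred in no other quantified gene for Vmn1r49, 97.4% for Vmn1r85 and 92.8% for Vmn1r89. Within the coding part these shares were 73.9%, 100% and 80.7%, so most sequence of each receptor was its own and all of the coding part of Vmn1r85 was.

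Library totals lay between 60969508 and 71670766 estimated reads. Cnpy1, the targeted gene, went from 303 ± 22.5 CPM in wild type to 73.7 ± 5.67 CPM in the knockout (SD, n = 3 each), with every knockout below every wild type (log2 fold change -2.04, SE 0.08, edgeR adjusted p = 1.75e-05). CPM are gene reads scaled to a common library size, with TMM factors between libraries. The neuron markers Omp, Trpc2, Gnai2 and Gnao1 were present in every library, with a lowest value of 91.3 TPM. Omp, a marker of mature sensory neurons, lay between 1051 and 1264 CPM in wild type and between 888 and 951 CPM in the knockout (log2 fold change -0.31, edgeR adjusted p = 0.203, DESeq2 adjusted p = 0.00648). All 4 of these markers had an unadjusted edgeR p under 0.05 and did not overlap between the genotypes, 3 lower and Gnai2 higher in the knockout. Of the 4, edgeR and limma-voom each called 1 and DESeq2 called 3. Their part in the results on the receptors was not tested. The 25 markers of 6 other cell types (main olfactory neurons, supporting cells and glands, ciliated respiratory epithelium, immune cells, red blood cells, cartilage and bone) had 0 calls with edgeR, DESeq2 or limma-voom, with 2 (8.0%) at an unadjusted edgeR p under 0.05, and the summed level of each list overlapped between the genotypes. Of all genes tested, 0.761% were called by edgeR and 2.45% by DESeq2, and limma-voom called 120 of 16679. An unadjusted edgeR p under 0.05 was found for 10.5% of all genes, and the genotypes did not overlap for 16.2%. Both markers at an unadjusted p under 0.05 were among the 4 of immune cells, Ptprc (log2 fold change 0.26, edgeR adjusted p = 0.381) and C1qa (log2 fold change 0.15, edgeR adjusted p = 0.463), and Ptprc did not overlap between the genotypes. The part of immune cells in the results was not tested. None of these markers was at 0 TPM in any library.

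For none of the 3 receptors did wild type and knockout separate beyond the spread between mice. The sulfated steroid receptors Vmn1r89 and Vmn1r85 were among the most abundant V1R transcripts of the organ, and the 2-heptanone receptor Vmn1r49 ranked 81. None of the 3 was called at an edgeR adjusted p under 0.05, while 0.761% of the 16679 genes tested were, 0.683% as lower and 0.0779% as higher in the knockout. DESeq2 and limma-voom also called 0 of the 3. Over all genes, DESeq2 called 2.45% and limma-voom called 120 of 16679. An unadjusted edgeR p under 0.05 was found for 0 of the 3, against 10.5% of all genes. All 3 passed the filter on low counts, with at least 680 reads in every library. In RNA from a whole organ, fewer cells of a type and less RNA per cell cannot be told apart.

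**Figure D1:**
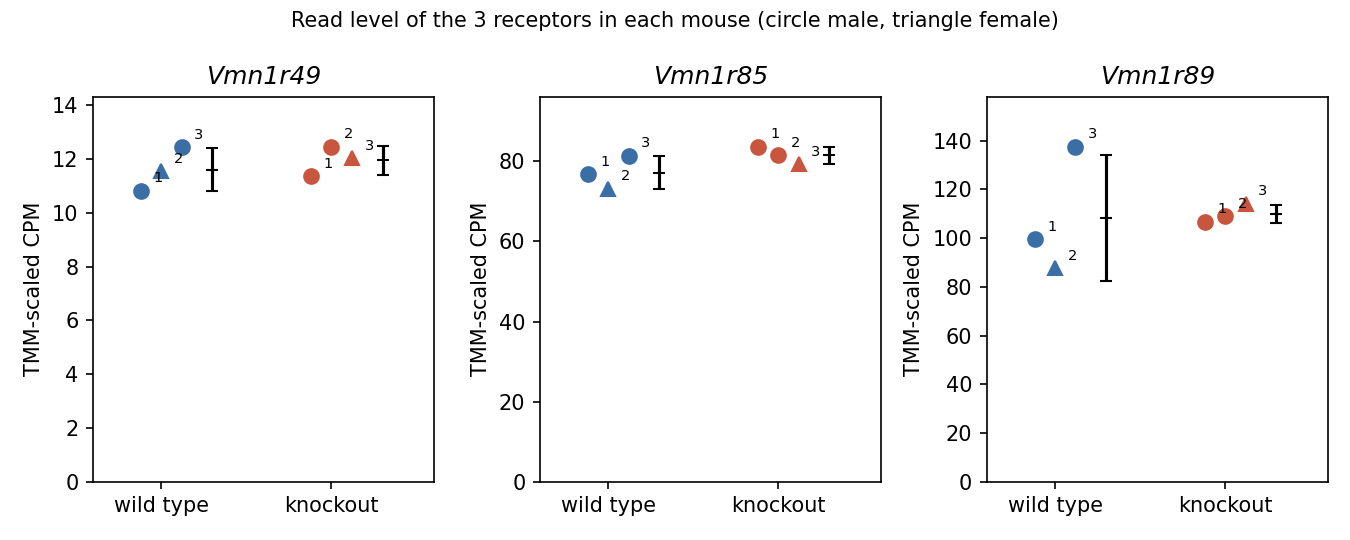
TMM-scaled CPM of Vmn1r49, Vmn1r85 and Vmn1r89 (vertical axes, from 0) in each mouse, by genotype; circles are males, triangles females, numbers are replicate numbers and black bars the mean ± SD of 3 mice. The genotypes overlap for each receptor, and wild-type replicate 3 stands at 138 CPM for Vmn1r89.

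For Vmn1r49, the receptor for 2-heptanone, wild type gave 717, 718 and 926 reads per library and the knockout 680, 727 and 808. Scaled to CPM, these were 10.8, 11.5 and 12.4 in wild type and 11.4, 12.5 and 12.0 in the knockout. Wild-type mouse 1 was the lowest of the 6, the other wild-type mice lay inside the knockout range, and the groups overlapped. The means were 11.6 ± 0.805 CPM in wild type against 11.9 ± 0.550 CPM in the knockout (SD, 3 mice per genotype). The log2 fold change was 0.04 (SE 0.08, adjusted p = 0.917 by edgeR). Its 95% interval placed the knockout between 90.5% and 117% of wild type.

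Vmn1r85 had 5083, 4556 and 6064 reads in the wild-type libraries and 5005, 4755 and 5327 in the knockout libraries. In CPM these were 76.7, 73.2 and 81.4 in wild type and 83.6, 81.4 and 79.3 in the knockout. The wild-type mice 1 and 2 were the lowest of the 6, and wild-type mouse 3 lay inside the knockout range. The means were 77.1 ± 4.13 and 81.4 ± 2.18 CPM (SD, n = 3 each), with a log2 fold change of 0.08 (SE 0.06, adjusted p = 0.707 by edgeR). The 95% interval ran from 96.4% to 116% of wild type, the narrowest of the 3 receptors.

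Vmn1r89 had 6600, 5461 and 10243 reads in wild type and 6389, 6370 and 7670 in the knockout. The CPM were 99.7, 87.7 and 138 in wild type and 107, 109 and 114 in the knockout. The wild-type values spread on both sides of the knockout values, which lay close together, and wild-type mouse 3 was the highest and wild-type mouse 2 the lowest of all. The means were 108 ± 26.0 and 110.0 ± 3.77 CPM (SD, n = 3 each), and the log2 fold change was 0.02 (SE 0.15, adjusted p = 0.980 by edgeR). The 95% interval ran from 80.5% to 128% of wild type. Without wild-type replicate 3 the log2 fold change was 0.23 (SE 0.07), with an unadjusted edgeR p of 0.0149 and an adjusted p of 0.421. In that fit 8.97% of all genes had an unadjusted p under 0.05.

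Counting error, which leaves out the error of assigning reads among similar copies, was at most 3.83% of the value for Vmn1r49, 1.48% for Vmn1r85 and 1.35% for Vmn1r89. The coefficient of variation of CPM in wild type was 6.94% for Vmn1r49, 5.35% for Vmn1r85 and 24.0% for Vmn1r89. In the knockout it was 4.6%, 2.67% and 3.43%. Vmn1r89 had 1.30, 1.20 and 1.69 reads per Vmn1r85 read in the wild-type libraries and 1.28, 1.34 and 1.44 in the knockout libraries. The highest ratio was again that of wild-type replicate 3. Over the 6 libraries, the SD of log2 CPM was 0.08 for Vmn1r49, 0.07 for Vmn1r85 and 0.21 for Vmn1r89, beside a median of 0.15 over the 183 V1R genes tested.

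The level of the receptors within the V1R family was compared per length in TPM, which the authors deposited. Vmn1r89 had 66.6, 66.7 and 103 TPM in wild type and 75.1, 65.4 and 86.0 TPM in the knockout. Vmn1r85 had 52.0, 54.7 and 67.1 TPM in wild type and 56.2, 48.8 and 62.7 TPM in the knockout. For Vmn1r49 the values were 3.49, 4.75 and 4.73 TPM in wild type and 4.12, 4.25 and 4.87 TPM in the knockout. By the wild-type mean, Vmn1r89 ranked 2 and Vmn1r85 ranked 3 among the 317 V1R genes, and Vmn1r49 ranked 81. Of these genes 226 had a wild-type mean above 0 TPM, with a median of 2.44 TPM. The other V1R genes among the 5 highest were Vmn1r37 with 104.8 ± 18.5, Vmn1r35 with 52.1 ± 4.28 and Vmn1r27 with 36.1 ± 7.48 TPM (SD, n = 3). Over wild-type mice, the range of Vmn1r37, 84.0 to 119.6 TPM, overlapped that of Vmn1r89, the ranges of Vmn1r89 and Vmn1r85 overlapped, and the range of Vmn1r35, 48.5 to 56.8 TPM, overlapped that of Vmn1r85. Within libraries, each of these 3 pairs of neighbours kept its order in 6 of 6 libraries. In all, the wild-type TPM ranges of 2 other V1R genes overlapped that of Vmn1r89, of 2 that of Vmn1r85 and of 43 that of Vmn1r49.

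**Figure D2:**
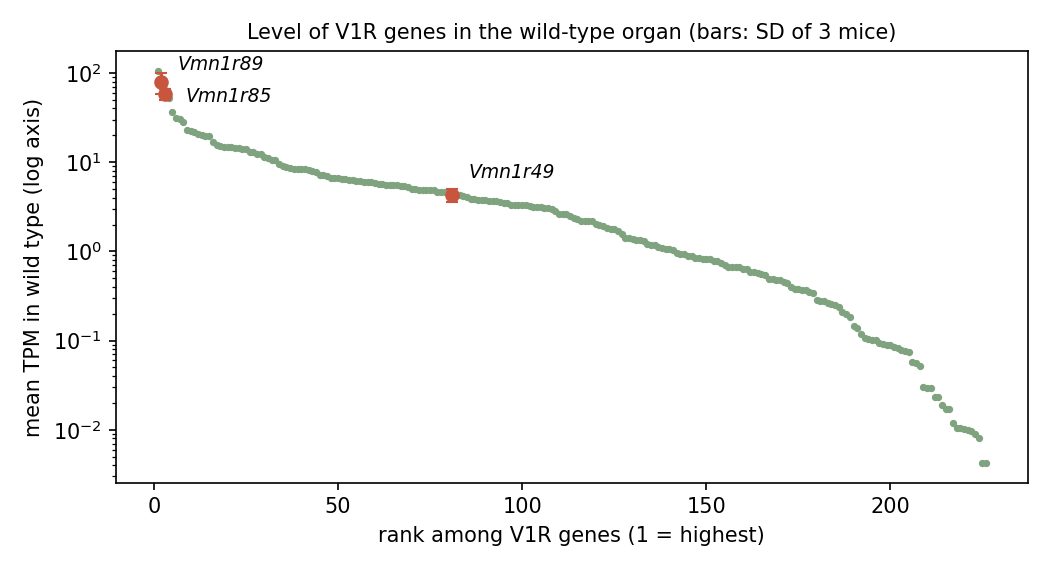
Mean TPM in wild type (log axis) of the V1R genes with a mean above 0, by rank. Vmn1r89 and Vmn1r85 (red, with the SD of 3 mice) stand at ranks 2 and 3 and Vmn1r49 at rank 81.

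The order of the 3 levels was the same in every library. Vmn1r49 was below Vmn1r85 by 3.70 ± 0.157 on the log2 TPM scale and below Vmn1r89 by 4.13 ± 0.226 (SD, n = 6 each). Vmn1r85 was below Vmn1r89 by 0.43 ± 0.11 (SD, n = 6), which is 0.744 of its level. Each difference had the same sign in 6 of 6 libraries and a two-sided exact sign-flip p of 0.031, the smallest that 6 libraries can give, and 0.031 after adjustment over the 3 pairs. With reads per kilobase of annotated exon length in place of TPM, Vmn1r85 stood at 0.463 of Vmn1r89, and Vmn1r49 at 0.167 of Vmn1r85 in place of 0.0767. By that measure Vmn1r89 ranked 2, Vmn1r85 ranked 9 and Vmn1r49 ranked 96 among V1R genes. Counted in CPM without regard to length, Vmn1r89 ranked 1, Vmn1r85 ranked 6 and Vmn1r49 ranked 69.

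The length measures weigh the transcript models differently. The annotation gives each receptor a short model of its coding exon alone beside longer, spliced models. For Vmn1r85 the model of 927 bases with 1 exon held from 30.0% to 36.4% of the gene's reads but from 79.1% to 83.3% of its TPM. For Vmn1r89 the model of 951 bases held from 9.997% to 14.2% of the reads and from 25.5% to 33.5% of the TPM. For Vmn1r49 the model of 933 bases was listed at 0 reads in every library. Its reads went to a model of 2 exons and 6276 bases, with 83.1% ± 2.78 in wild type and 81.1% ± 0.815 in the knockout, and to one of 2 exons and 1356 bases, with 16.9% ± 2.78 and 18.9% ± 0.815 (SD, n = 3 each). The longer one keeps part of what the shorter one removes as an intron. In Vmn1r89, the leading one of 10 models had 2 exons and 1992 bases, with 34.8% ± 2.28 of reads in wild type and 34.0% ± 2.85 in the knockout (SD, n = 3 each).

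**Figure D3:**
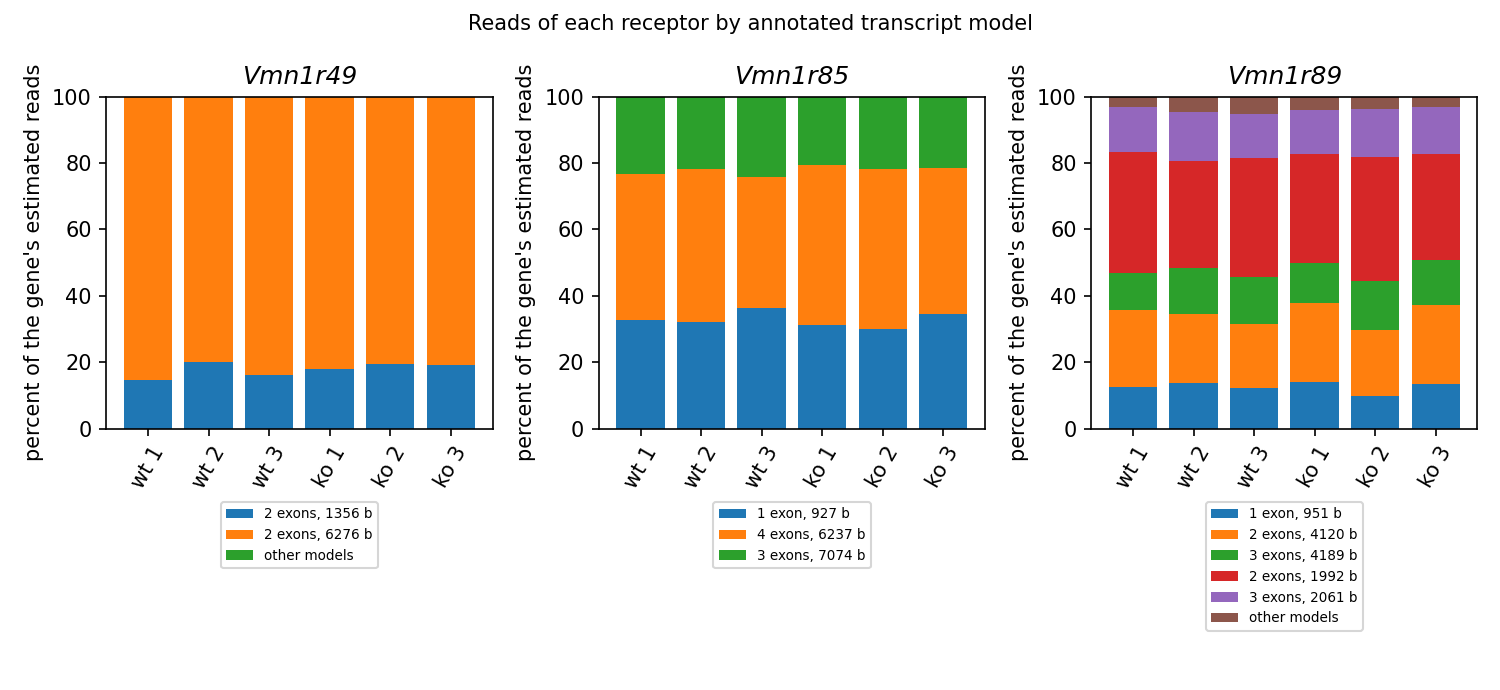
Percent of the estimated reads of Vmn1r49, Vmn1r85 and Vmn1r89 (vertical axes) given to each annotated transcript model, by library (wt wild type, ko knockout); models under 5% on average are pooled. The division is similar in the 6 libraries of each receptor.

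The division of reads among models was compared between the genotypes for the 10 models with at least 5% of their gene's reads. After adjustment over the 10, the two-sided exact permutation p lay between 0.8 and 1 for each. The model of Vmn1r85 with 3 exons and 7074 bases was the 1 whose groups did not overlap, with 23.1% ± 1.20 in wild type and 21.3% ± 0.608 in the knockout (SD, 3 mice per genotype, exact two-sided permutation p = 0.1 before adjustment, the smallest that 3 against 3 mice can give).

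Expressing each receptor as a share of all V1R reads sets it against the other V1R genes of the same mouse, protein-coding or not. Vmn1r49 took 0.430%, 0.464% and 0.431% of V1R reads in wild type and 0.416%, 0.459% and 0.396% in the knockout. Vmn1r85 took 3.05%, 2.94% and 2.82% in wild type and 3.06%, 3.00% and 2.61% in the knockout. For Vmn1r89 the shares were 3.96%, 3.53% and 4.77% in wild type and 3.91%, 4.02% and 3.76% in the knockout. The groups overlapped for each receptor, and the two-sided exact permutation p adjusted over the 3 was 0.9 for each. Without wild-type replicate 3 the log2 ratio of the Vmn1r89 share turned from -0.069 to 0.058, and without knockout replicate 3 that of the Vmn1r85 share turned from -0.023 to 0.045. Together the 3 receptors took between 6.77% and 8.03% of V1R reads in any library. Their summed level was 199.7 ± 36.1 CPM in wild type against 201 ± 12.3 CPM in the knockout (SD, 3 mice per genotype, exact two-sided permutation p = 1, CPM without TMM scaling). Without wild-type replicate 3 the log2 ratio of the sum went from 0.01 to 0.17, every knockout lay above every wild type, and the exact permutation p was 0.1, the smallest that 2 against 3 mice can give.

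Because close copies could trade reads with them, Vmn1r89 and Vmn1r49 were also summed with theirs. Vmn1r89 with Vmn1r86 and Vmn1r88 had 188, 192 and 263 CPM in wild type and 203, 198 and 245 CPM in the knockout. Vmn1r49 with Vmn1r44 and Vmn1r50 had 19.0, 21.8 and 25.6 CPM in wild type and 21.1, 20.97 and 27.5 CPM in the knockout. Replicate 3 was the highest of each genotype in both sums, and the groups overlapped (two-sided exact permutation p = 1 for both after adjustment over the 2 sums, in CPM without TMM scaling). Vmn1r86 alone was at 97.7 ± 10.4 CPM in wild type against 101 ± 10.02 CPM in the knockout (SD, 3 mice per genotype), so its mean was near that of Vmn1r89.

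Counts over the closest relatives stand beside 0.761% of all genes called by edgeR, 2.45% by DESeq2 and 120 of 16679 by limma-voom. A count of 0 called in a short list says little beside these shares. Of the 5 neighbours Vmn1r85 to Vmn1r89 on chromosome 7, all were tested and 0 were called by edgeR, DESeq2 or limma-voom. Their log2 fold changes lay between 0.02 and 0.26, with a median of 0.05, the highest being that of Vmn1r87 (13.0 ± 2.49 to 15.6 ± 0.659 CPM, SD, n = 3 each, edgeR adjusted p = 0.543). Of the 8 genes of the V1rb clade, 6 were tested and 0 were called by any of the 3 tools, with a median log2 fold change of 0.17. Vmn1r46 had the smallest adjusted p among them, with 7.17 ± 0.218 CPM in wild type against 8.49 ± 0.714 CPM in the knockout (SD, 3 mice per genotype, log2 fold change 0.24, SE 0.09, edgeR adjusted p = 0.406). Vmn1r53 and Vmn1r239-ps, the 2 untested genes, were listed at 0 reads in every library.

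Among all 183 V1R genes tested, 0 were called by edgeR or limma-voom and 5 by DESeq2, which called 2.45% of all genes. Over all 16679 genes, edgeR called 0.761% and limma-voom called 120. With every gene of at least 1 read kept, edgeR called 1 V1R gene and 0 of the 3 receptors, beside 0.695% of all genes. An unadjusted edgeR p under 0.05 was found for 21 of the 183 V1R genes (11.5%), all higher in the knockout. Of all 16679 genes tested, 10.5% had such a p, 759 of them higher and 999 lower in the knockout. The median log2 fold change of the V1R genes was 0.11, beside 0.01 over all genes tested. Ordered from the lowest fold change, Vmn1r89 stood at 47, Vmn1r49 at 56 and Vmn1r85 at 73 of the 183. The genotypes did not overlap for 22 V1R genes (12.0%) and for 0 of the 3 receptors, beside 16.2% of all genes tested. Of 148 V2R genes tested, edgeR called 62 lower and 7 higher, together 46.6%. Over all genes it called 0.683% lower and 0.0779% higher. The median log2 fold change of the V2R genes was -0.62.

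**Figure D4:**
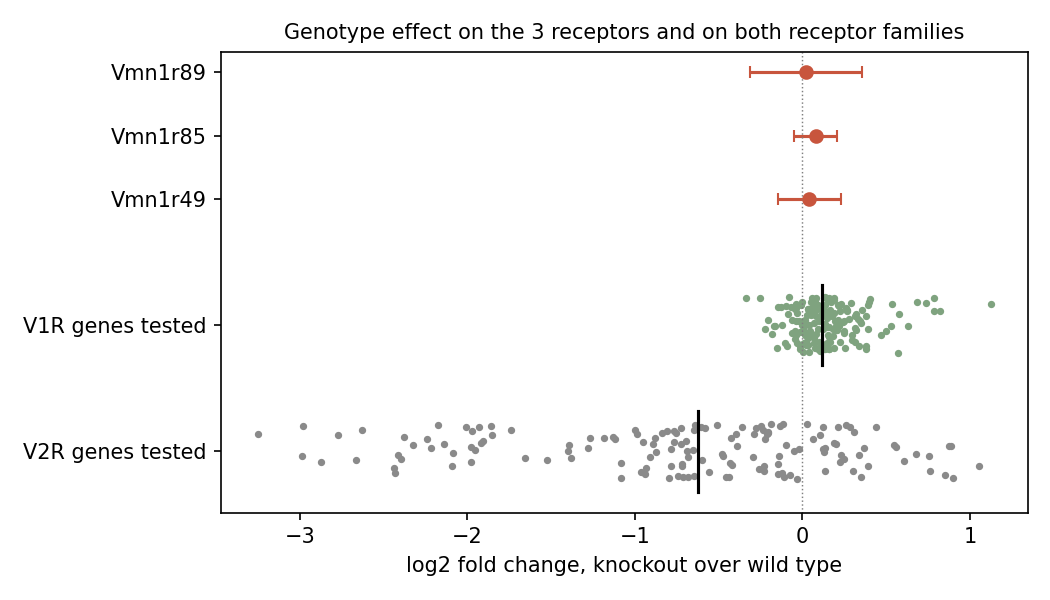
log2 fold change, knockout over wild type, for Vmn1r49, Vmn1r85 and Vmn1r89 (red, bars are 95% intervals, n = 3 mice per genotype) and for each V1R and V2R gene tested (points, black line the median). The 3 receptors lie between 0.02 and 0.08, inside the V1R cloud, while the V2R median is -0.62.

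Set against V2R reads of the same mouse, the 3 receptors were higher in every knockout than in any wild type, and so were 86.3% of all genes tested, so this separation is not particular to the receptors. Vmn1r49 had 0.189, 0.194 and 0.194 reads per 100 V2R reads in wild type and 0.306, 0.288 and 0.291 in the knockout. The values of Vmn1r85 were 1.34, 1.23 and 1.27 in wild type and 2.25, 1.88 and 1.92 in the knockout, and those of Vmn1r89 were 1.74, 1.48 and 2.15 against 2.87, 2.52 and 2.77. The log2 ratios of the means were 0.62, 0.65 and 0.60, each with a two-sided exact permutation p of 0.1, the smallest possible, also after adjustment over the 3. The V2R sum itself was 6101 ± 566 CPM in wild type against 4016 ± 363 CPM in the knockout (SD, 3 mice per genotype), without overlap, and that of V1R genes was 2662 ± 303 and 2804 ± 332 CPM (SD, n = 3 each), with overlap. These sums are in CPM without TMM scaling.

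Gnai2 encodes the G protein subunit of the neurons that express V1R receptors. It was at 644 ± 33.0 CPM in wild type against 726 ± 27.3 CPM in the knockout (SD, 3 mice per genotype), without overlap but not called (log2 fold change 0.17, SE 0.06, edgeR adjusted p = 0.377). Per 100 Gnai2 reads, Vmn1r49 had 1.81 ± 0.209 reads in wild type and 1.65 ± 0.137 in the knockout, Vmn1r85 12.0 ± 0.995 and 11.2 ± 0.453, and Vmn1r89 16.9 ± 4.58 and 15.2 ± 0.792 (SD, n = 3 each). The groups overlapped for each, and the two-sided exact permutation p adjusted over the 3 was 0.6, 0.6 and 0.9. Without wild-type replicate 3 the log2 ratio of Vmn1r89 per Gnai2 read turned from -0.16 to 0.087. The other apical markers were not called either, with log2 fold changes of 0.14 for the transcription factor gene Meis2, 0.09 for the axon guidance receptor gene Nrp2, 0.04 for the adhesion gene Ncam2 and -0.07 for the phosphodiesterase gene Pde4a. By DESeq2 and limma-voom too, 0 of the 5 apical markers were called. Over all 16679 genes, edgeR called 0.761%, DESeq2 2.45% and limma-voom 120 genes. An unadjusted edgeR p under 0.05 was found for 1 of the 5, beside 10.5% of all genes. The genotypes did not overlap for 2 of the 5, Gnai2 and Meis2, both higher in the knockout, beside 16.2% of all genes.

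Downstream of the receptors, 12 genes of vomeronasal signalling were tested and 0 were called by edgeR or limma-voom, with 7 (58.3%) at an unadjusted edgeR p under 0.05, of which 5 were lower and 2 higher, beside 10.5% of all genes. Their median log2 fold change was -0.10. Trpc2, the main transduction channel of both neuron classes, was at 312 ± 28.0 CPM in wild type against 250 ± 17.2 CPM in the knockout (SD, 3 mice per genotype, log2 fold change -0.32, SE 0.08, edgeR adjusted p = 0.197). The calcium-activated chloride channel gene Ano2 had a log2 fold change of -0.26 (edgeR adjusted p = 0.107) and the calcium-activated potassium channel gene Kcnn3 one of -0.31 (edgeR adjusted p = 0.107). DESeq2 called these 3 genes, with adjusted p of 0.00915, 0.00440 and 0.0101, beside 2.45% of all genes. Plcb2, a phospholipase C gene, had a log2 fold change of -0.35 (edgeR adjusted p = 0.276), and Rtp1, whose product helps chemosensory receptors reach the surface, one of 0.05 (edgeR adjusted p = 0.816). Of the 5 basal markers, Gnao1 was called lower by edgeR (log2 fold change -0.41, SE 0.05, edgeR adjusted p = 0.0143), beside 0.761% of all genes, and the list's median was -0.26. Limma-voom called 1 of the 5, beside 120 of all 16679 genes, and DESeq2 called 2, beside 2.45% of all genes. At an unadjusted edgeR p under 0.05, 4 of the 5 were lower, beside 10.5% of all genes in either direction, and 5 of 5 did not overlap between the genotypes, beside 16.2%.

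Whether the receptors differed between the sexes was tested with sex and genotype as terms, over 4 males and 2 females. None of the 3 was called, beside 0.042% of genes, and 0 had an unadjusted edgeR p under 0.05, beside 5.5%. DESeq2 also called 0 of the 3, beside 58 genes over all those tested. With the replicate number as a block, the effect of Vmn1r89 was -0.29 (SE 0.04), with an unadjusted edgeR p of 0.00105 and an adjusted p of 0.165. In that fit 12.4% of all genes had an unadjusted p under 0.05. It has almost as many terms as libraries, and the sexes differ only within replicate numbers 2 and 3. Wild-type mice 2 (female) and 3 (male) were the lowest and highest of all for Vmn1r89. Without wild-type replicate 3 and without the block, the sex effect of Vmn1r89 was -0.03. Vmn1r49 was at 11.8 ± 0.809 CPM in males and 11.8 ± 0.346 CPM in females (SD, n = 4 and 2), with a log2 fold change of 0.00 for females over males (SE 0.09, adjusted p = 0.999 by edgeR). For Vmn1r85 the means were 80.8 ± 2.90 and 76.2 ± 4.30 CPM (SD, n = 4 and 2), a log2 fold change of -0.08 (SE 0.06, adjusted p = 0.874 by edgeR). Vmn1r89 was at 113 ± 16.7 and 101 ± 18.7 CPM (SD, n = 4 and 2), a log2 fold change of -0.17 (SE 0.16, adjusted p = 0.890 by edgeR). In males only, the genotype effects were 0.03 for Vmn1r49, 0.06 for Vmn1r85 and -0.14 for Vmn1r89 (edgeR adjusted p = 0.954, 0.833 and 0.811). The interaction of genotype and sex was not called for any of the 3, beside 0.024% of genes, and its largest value was 0.52 for Vmn1r89 (SE 0.25, edgeR adjusted p = 0.958). With 1 female per genotype, an interaction and a difference between single mice cannot be told apart.

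The V1R genes most like the 3 receptors over the 6 libraries were found by the root-mean-square difference of log2 CPM with a prior of 0.5 CPM, each gene centred on its own mean. For Vmn1r49 they were Vmn1r232 (0.0346), Vmn1r233 (0.0394) and Vmn1r52 (0.0429), beside a median of 0.133 over the 182 other V1R genes. For Vmn1r85 they were Vmn1r68 (0.0337), Vmn1r233 (0.0477) and Vmn1r208 (0.0522), with a median of 0.134. For Vmn1r89 they were Vmn1r135 (0.0492), Vmn1r236 (0.0579) and Vmn1r4 (0.0639), with a median of 0.183. Vmn1r135 had between 2 and 20 reads per library and at most 0.269 CPM, below the prior, which flattens its values, so its small difference does not show that its level followed that of Vmn1r89. Vmn1r85 stood at rank 12 of 182 for Vmn1r49, with a difference of 0.0728. Vmn1r89, which shares its clade name with Vmn1r85, stood at rank 123 of 182 for Vmn1r85, with a difference of 0.158, while Vmn1r85 stood at rank 63 of 182 for Vmn1r89. The measure is small between any genes that vary little and larger where 1 of them varies widely. The SD of log2 CPM was 0.08 for Vmn1r49, 0.07 for Vmn1r85 and 0.21 for Vmn1r89, beside a V1R median of 0.15. The ranks therefore also reflect this spread and do not by themselves show shared or diverging patterns. These points come from the same 6 libraries and are a description.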

How the data were processed

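The authors deposited, per the file headers, 1 table per library with an estimated count and a TPM value for 117081 transcripts. The submitters' processing notes name Trim Galore 0.6.6, Salmon 1.9.0, DESeq2 and the builds mm10 and GRCm38; the annotation release is not given in the sources used here. Transcripts were joined by identifier to GENCODE M21 (GRCm38), where 115942 matched; the other 1139 held 0.304% of reads and were left out. Estimated counts were summed per gene and rounded. Genotype was tested over all genes with edgeR 4.0.16 (legacy quasi-likelihood F test, TMM, filterByExpr, Benjamini-Hochberg adjustment, R 4.3.3), and the SE is the log2 fold change divided by the square root of F. Shares, sums and ratios were compared by exact permutation over mice, levels by exact sign flips. The edgeR fit was tested on simulated data, where 83.0% of 2-fold and 99.0% of 4-fold genotype changes were recovered among 16548 genes. DESeq2 1.42.0 and limma 3.58.1 were alternatives. Replicates are separate mice.

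Genes were named by rule: the 3 receptors, Cnpy1, the signalling and apical lists, clade members, the 3 closest by coding identity and by pattern, and the 5 V1R genes highest in TPM, while Gnao1, Omp, Ptprc, C1qa and Vmn1r87 come from the marker lists and the gene cluster and were named after their values were seen. Identity was computed on coding bases (Biopython 1.88), where proteins had been planned. Transcript shares, copy sums and the ratios to Gnai2 and V2R reads were added after the data were seen. The members and lists were chosen with earlier results of these data known. Further alternatives were other scaling, filter, sex term, replicate block, males only, effective lengths and leaving out each library.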

Additional observations from a re-analysis of the deposited data

How the results depend on the processing

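None of the 3 receptors was called for genotype under any of the 16 alternatives, with edgeR, DESeq2 or limma-voom adjusted p from 0.421 to 0.997. Where values changed, the cause was not tested; males only and leaving out a library use fewer samples. The log2 fold change of Vmn1r85 stayed between 0.02 and 0.12. That of Vmn1r49 ran from -0.0034 (without wild-type replicate 1) to 0.11, and without 1 library from -0.0034 to 0.10. That of Vmn1r89 was -0.14 in males only, -0.012 without scaling factors, and from -0.11 to 0.23 without 1 library. Cnpy1 kept its call, from -1.72 to -2.09. Genes called for genotype numbered 409 with DESeq2, 76 in males only and from 69 to 96 without 1 library (69 and 78 without wild-type replicates 2 and 1, 82 without wild-type replicate 3, 76 without knockout replicate 1), against 127, and V1R genes called numbered 5 with DESeq2, 1 with every gene of at least 1 read kept, and 0 otherwise. For sex, 58 genes were called with DESeq2, 12 with every gene of at least 1 read, 23 with the replicate block and from 4 to 10 without 1 library, against 7. The sex effect of Vmn1r49 was -0.080 with the replicate block and from -0.037 to 0.047 without 1 library, and that of Vmn1r89 was -0.29 with the block (SE 0.04, edgeR adjusted p = 0.165) and from -0.44 to 0.081. With the replicate block, 154 genes were called for genotype, and no call of the 3 receptors changed. The labels give same-numbered mice no link beyond the number. Their deviations correlated across genes at 0.155, -0.094 and 0.23, of which 0.23 was the highest of any pair of a wild-type and a knockout mouse. Wild-type mouse 1 was closest to knockout mouse 2 (0.171). Whether same-numbered mice share a litter or batch was not tested. The TPM share of Vmn1r49 gave a log2 ratio of 0.033 in place of -0.06. The order of levels held in every subset, where the test could no longer pass: in wild type only the log2 differences were -3.75, -4.17 and -0.42 (exact sign-flip adjusted p = 0.25), and without 1 library they ran from -3.74 to -3.67, from -4.20 to -4.07 and from -0.46 to -0.39 (exact adjusted p = 0.062). The sum of the 3 receptors ran from a log2 ratio of -0.07 to 0.17 without 1 library. Of the 22 shares, ratios and sums, 10 changed sign when 1 library was left out and 12 did not.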

Other observations

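The 5 V1R genes that DESeq2 called and edgeR did not were Vmn1r54, Vmn1r57, Vmn1r71, Vmn1r206 and Vmn1r-ps14, which are named here after their values were seen. None is among the 3 receptors with known ligands. Vmn1r57 was the closest to an edgeR call, with 324, 271 and 395 reads in wild type and 491, 432 and 465 in the knockout (log2 fold change 0.63, edgeR adjusted p = 0.0563, DESeq2 adjusted p = 0.000503). It was also the 1 V1R gene called when every gene with at least 1 read was kept (edgeR adjusted p = 0.0368), where 0.695% of 22871 genes were called. Vmn1r71, the most abundant of the 5, was at 48.3 CPM in wild type against 60.2 CPM in the knockout (edgeR adjusted p = 0.203, DESeq2 adjusted p = 0.0255).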
